A study of Mus musculus with 8 samples.

Results

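Long intergenic noncoding RNAs (lincRNAs) are transcripts that lie between protein-coding genes, are spliced and polyadenylated much like mRNAs, and have no known protein product. The members described here are all genes with the Ensembl biotype lincRNA whose normalized counts average 50 or more across the 8 libraries, without H19 and Meg3. They number 128 of the 30387 genes in the table and of 1838 lincRNA genes in it. A normalized count is the number of reads of a gene divided by a size factor of its library, and since the members were chosen by their mean level, that level is a description and no finding. The members just inside the limit had means of 50.25 (9330175E14Rik), 51.0 (4632404H12Rik) and 51.25 (Gm43660), and the genes just outside it had 49.75 (Snhg6), 49.25 (Gm14221) and 49.25 (1700001L05Rik). As background, some lincRNAs build nuclear bodies, some are precursors of microRNAs or small nucleolar RNAs, and others are made from the promoters of neighboring genes, sometimes with effects on those genes. For most of the members no function is known, and they carry only a clone or model name.

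The libraries were made from primary white adipocytes isolated from the epididymal fat of male mice, and the study asked how the transcriptional cofactors YAP and TAZ act on white adipocytes during obesity. All mice carried Yap fl/fl and Taz fl/fl. Wild-type (WT) littermates carried the floxed alleles alone, and Ad-Yap/Taz-KO mice also carried Adipoq-Cre, which is driven by the adiponectin promoter, deletes both floxed genes in adipocytes and leaves other cells of the fat intact. Mice of either genotype received a standard chow diet (SD) or a high-fat diet (HFD) for 4 weeks, from week 5 of age in the series description, while the methods give a later start. Each of the 4 groups held 2 libraries, which the study counts as 2 mice though the sample labels do not name the animals, so no exact permutation test of 2 against 2 libraries can give a two-sided p below 0.333, and p-values come from a limma fit across all 18800 genes with a mean of at least 5. A gene is called where its adjusted p does not exceed 0.05 and its log2 fold change reaches 0.59, up or down, on the log2(normalized count + 1) scale, which understates the change of low genes.

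Libraries held 13990000 to 22320000 reads assigned to genes, as estimated from the value of 1 read in each column. Wwtr1, which encodes TAZ, had 5594 and 4743 normalized counts in WT, against 2441 and 1957 in Ad-Yap/Taz-KO on SD, and 7121 and 6807 against 2060 and 2707 on HFD. Yap1 had 2776 and 2717 in WT, against 1669 and 1699 in Ad-Yap/Taz-KO on SD, and 2468 and 2333 against 1549 and 2068 on HFD, so both targeted genes were lower in every Ad-Yap/Taz-KO library and neither was absent. The 12 adipocyte markers summed to 129167 in the second Ad-Yap/Taz-KO library on HFD, against 245301 in the first and 524411 to 533122 in WT on HFD. The 12 macrophage markers summed to 33496 and 36256 in Ad-Yap/Taz-KO on HFD and to 2552 and 2573 in WT on HFD, and to 18161 and 32241 against 5465 and 5524 on SD. The 9 fibroblast and progenitor markers summed to 69749 and 78362 in Ad-Yap/Taz-KO and to 22120 and 22549 in WT on HFD. On SD the adipocyte sums (370295 and 401142 in WT, against 311700 and 422009 in Ad-Yap/Taz-KO) and the fibroblast sums (36003 and 29865, against 51692 and 32839) overlapped between the genotypes. Endothelial markers summed to 21116 and 32702 in Ad-Yap/Taz-KO and 15783 and 16490 in WT on HFD, and on SD, in the other direction, to 24772 and 13485 against 31450 and 25989. Lymphocyte markers summed to 143 and 293 against 45 and 41 on HFD, and to 277 and 191 against 124 and 208 on SD. Mitochondrial transcripts, a sign of RNA quality, summed to 319178 and 306602 in Ad-Yap/Taz-KO and 227167 and 202556 in WT on HFD, and to 222889 and 293048 against 150977 and 144238 on SD. None of the 12 macrophage markers was at 0 in any group. A second list, of 12 lipid-associated macrophage markers, summed to 212320 and 138689 in Ad-Yap/Taz-KO and 233559 and 233315 in WT on HFD. On SD it summed to 170924 and 193485 against 135843 and 135736, and its member Dcstamp was at 0 in WT on HFD. Of these 12, 9 were called higher and 1 lower on HFD, against 17.1% and 15.1% of all genes tested. The part of these sums in the lincRNA results was not tested. Fewer cells of a type and less RNA per cell cannot be told apart in these libraries. At 1000 to 5000 normalized counts the WT libraries on HFD lay closer to each other than those of any other group, with a mean spread 5.87 times counting noise against 25.9 to 82.8 times elsewhere. At 5 to 20 counts the groups were alike (4.67 to 6.26 times, with WT on HFD at 4.74), and over the 128 members the median ratio was 2.26 in WT on HFD, 2.14 in WT on SD and 4.24 and 4.39 in Ad-Yap/Taz-KO. Whether these 2 libraries are separate animals or partly technical repeats was not tested, and p-values measure only the spread between the libraries. A fit that averages them into 1 sample is therefore given beside the named calls it ends, and no mean with an SD is given for that group.

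The members were spread over a wide range of levels. Their median was 107 normalized counts, 60 had a mean under 100, 64 lay between 100 and 1000, and 4 reached 1000. All 128 had a value above 0 in every library, and 82 reached 50 in all 4 groups. Their exons summed to a median of 2795 bp, against 4794 bp for the 11237 protein-coding genes above the same mean, and their median GC content was 46.7% against 49.8%. Of the 128, 34 began within 5 kb of a protein-coding start and 19 shared over 10% of their exon bases with another gene. A later annotation (GENCODE vM21, same genome build) held 125 of them and still called 104 lincRNA. It called 12 antisense and 2 pseudogenes.

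Gm26917, Malat1 and Neat1 made up 96.4% to 97.2% of the summed counts of the members in every library. Per kilobase of exon, averaged over the 8 libraries, Gm26917 had 112864 normalized counts, Malat1 25712 and Neat1 5313. The next members per kilobase were far lower, with Gm454 at 271, Gm27019 and Gm3289 at 269, Gm13833 at 268, 1700020I14Rik at 231, Gm17275 at 227 and 1700047G03Rik at 223. Gm26917 (chr17:39843013-39846341, plus strand, GRCm38) lies at a genomic copy of the ribosomal RNA precursor, and the libraries were made after ribosomal RNA depletion. It had 366739 to 398475 normalized counts in 7 libraries and 272152 in the second Ad-Yap/Taz-KO library on HFD. The groups overlapped on HFD, and the log2 difference of -0.26 ± 0.33 (SE) did not pass the test (limma adjusted p = 0.58); it turned to 0.01 without that library, to 0.13 with libraries scaled to the same total and to 0.42 with quantile normalization.

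Malat1 (chr19:5795690-5802672, minus strand), the abundant RNA of nuclear speckles, had between 168436 and 190396 normalized counts in all libraries. It had 175192 and 169802 in WT, against 168436 and 180539 in Ad-Yap/Taz-KO on HFD, and the groups overlapped. The log2 difference was 0.02 ± 0.25 (SE) with a limma adjusted p of 0.97, and it was -0.08 with the trend on GC content and gene length removed.

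Neat1 (chr19:5824708-5845478, minus strand), the scaffold RNA of paraspeckles, lies near Malat1 on the same strand and had a different pattern. WT libraries held 186796 and 167516 normalized counts on SD and 24252 and 24892 on HFD, whereas Ad-Yap/Taz-KO libraries held 115148 and 131560 on SD and 111598 and 121038 on HFD. The WT libraries on HFD thus stood below all 6 others, which did not overlap with them. Neat1 was 4.73-fold higher in Ad-Yap/Taz-KO than in WT on HFD (log2 2.24 ± 0.22, limma adjusted p = 9.2e-06) and 7.21-fold lower on HFD than on SD in WT (log2 -2.85 ± 0.22, limma adjusted p = 3.1e-05). On SD the difference between genotypes did not pass the test (log2 -0.52 ± 0.22, limma adjusted p = 0.23). In Ad-Yap/Taz-KO the diets differed by -0.08 ± 0.22 on the log2 scale (limma adjusted p = 0.89), and this small value was 0.11 with quantile normalization. The effects of the knockout on HFD and on SD differed by a log2 of 2.77 ± 0.31 (limma adjusted p = 0.0012). Neat1 kept its calls on HFD, between diets in WT and in the interaction under every other setting and without each library. The 2 comparisons in which Neat1 moved most share the WT libraries on HFD. Of 20 genes for paraspeckle proteins, Hnrnpa1 alone was called higher on HFD and none lower. The summed counts of these genes stayed between 25576 and 27932 in all libraries.

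**Figure D1:**
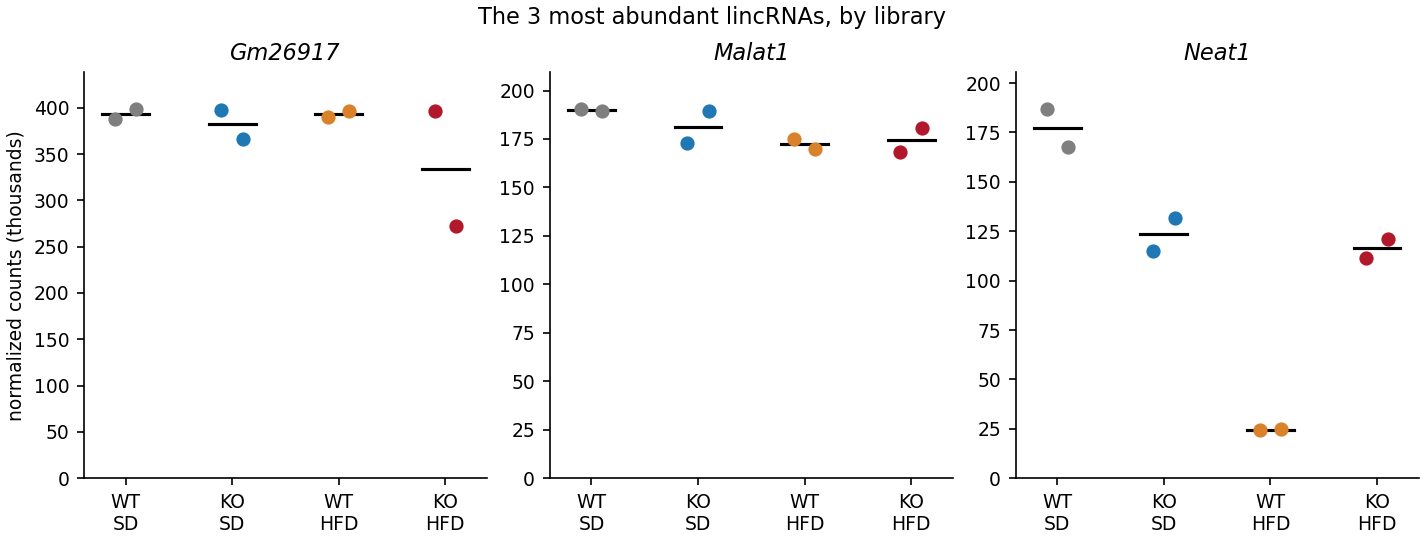
Normalized counts, in units of 1000 on linear axes from 0, of Gm26917, Malat1 and Neat1 in the 4 groups, with 1 point per library and a line at the mean of the 2 libraries. The Neat1 points of WT on HFD, at 24252 and 24892, sit below all others, whereas the Malat1 points lie between 168436 and 190396 in every group.

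On HFD, 55 of the 128 members (43.0%) were called between the genotypes, against 32.2% of all genes tested and 41.1% of genes at a mean of 50 or more, the limit the members also had to reach. More members were higher than lower. In all, 38 (29.7%) were higher, against 17.1% of all genes tested and 18.8% of those at a mean of 50 or more, and 17 (13.3%) were lower, against 15.1% and 22.3%. The median log2 fold change of the members was 0.38, that of all genes tested was 0.09 and that of genes at a mean of 50 or more was -0.14. The groups did not overlap for 94 members (73.4%), against 69.6% of all genes tested and 77.7% at a mean of 50 or more. The share of calls that were higher was 69.1%, and it was 82.5% (47 higher, 10 lower) with libraries scaled to the same total, 57.4% (27 and 20) with quantile normalization and 57.7% (30 and 22) with the trend on GC content and gene length removed. The count was 33 (24 higher, 9 lower) without the second Ad-Yap/Taz-KO library, 33 without the second WT library and 31 (23 and 8) with the WT libraries averaged to 1 sample. Of the 128, 18 would fall under the mean of 50 without their highest group, so that reaching the limit depended on the group in which they were high, and 7 of these were called on HFD (1700047G03Rik, 2610016A17Rik, AI662270, Gm26545, Gm26640, Gm26780 and Gm7160). Among the 89 members with a mean of at least 50 in both groups on HFD, 35 were called, 23 higher and 12 lower. Under every other refit and without each of the 4 libraries in turn, 25 members kept their call, 18 higher and 7 lower.

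**Figure D2:**
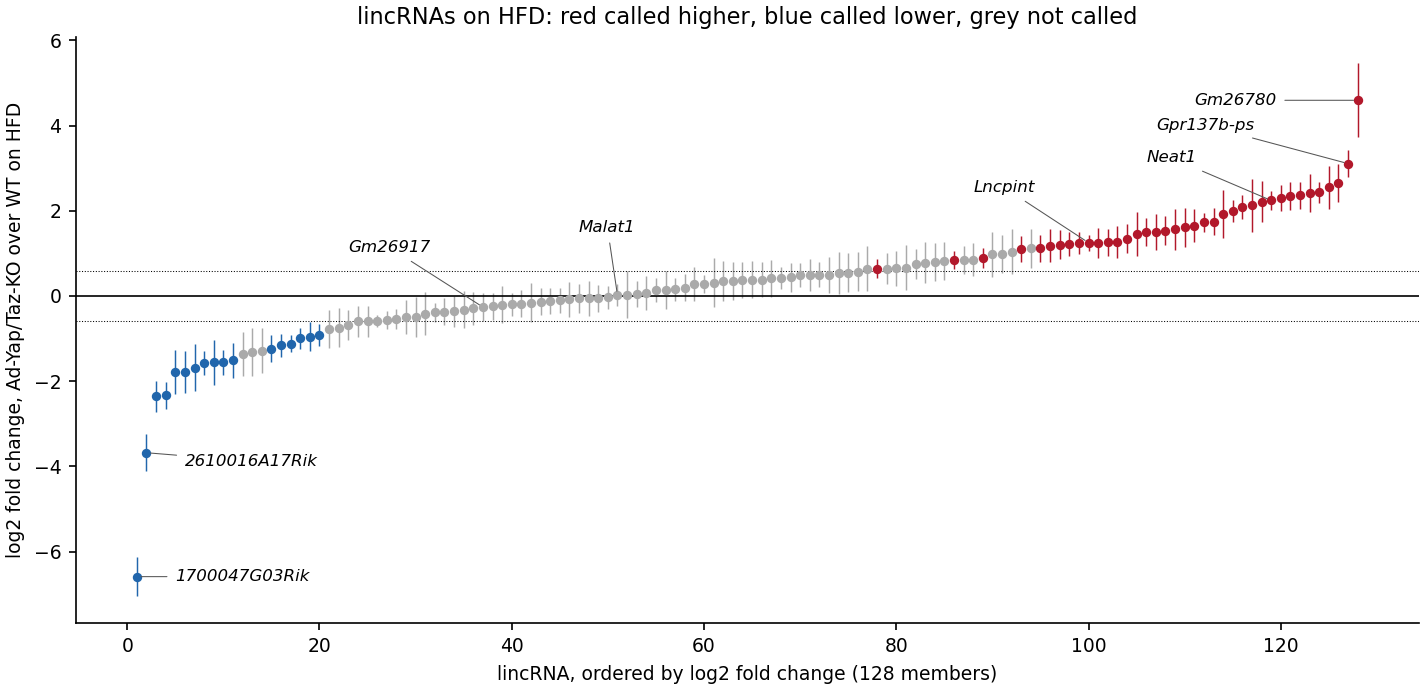
The log2 fold change of Ad-Yap/Taz-KO over WT on HFD for each of the 128 lincRNAs, ordered from lowest to highest, with bars of 1 SE from the limma fit and dotted lines at the fold limit of 0.59. The 38 red points were called higher, the 17 blue points lower, and 1700047G03Rik stands alone at -6.59.

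The member with the largest fall was 1700047G03Rik (chr15:11964276-11970083, plus strand; up to 5 exons), an RNA with no known function that starts 32707 bp from the start of Sub1. It had 1196 and 1312 normalized counts in WT on HFD and 9 and 16 in Ad-Yap/Taz-KO on HFD, 100-fold fewer (log2 -6.59 ± 0.46, limma adjusted p = 6.4e-07). On SD it had 46 and 72 in WT, against 6 and 7 in Ad-Yap/Taz-KO (log2 -2.97 ± 0.46, limma adjusted p = 0.0018; 0.07 in a fit of only these groups). WT libraries were higher than Ad-Yap/Taz-KO libraries on either diet, and those on HFD were higher than those on SD. In WT the RNA was 21.3-fold higher on HFD than on SD (log2 4.42 ± 0.46, limma adjusted p = 0.00014). In Ad-Yap/Taz-KO the diets differed by 0.80 ± 0.46 on the log2 scale and did not pass the test (limma adjusted p = 0.43). It was the single member called in 4 comparisons, and its mean over the groups other than WT on HFD was 26, under the limit that chose the members.

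2610016A17Rik (chr19:25671134-25672253, minus strand) starts 167 bp from the start of Dmrt2, a transcription factor gene of the doublesex family on the other strand, and the later annotation calls it antisense. It had 250 and 199 normalized counts in WT on HFD and 17 and 16 in Ad-Yap/Taz-KO on HFD, with 57 and 74 in WT, against 25 and 35 in Ad-Yap/Taz-KO on SD. The groups did not overlap on either diet, and the mean over the groups other than WT on HFD was 37.3, also under that limit. The RNA was 13.6-fold lower in Ad-Yap/Taz-KO on HFD (log2 -3.68 ± 0.43, limma adjusted p = 4.2e-05), while the difference on SD did not pass the test (-1.11 ± 0.43, limma adjusted p = 0.2). Dmrt2 itself had 2359 and 2197 in WT, against 224 and 111 in Ad-Yap/Taz-KO on HFD, and 507 and 935 against 171 and 254 on SD. The gene pair was thus lower together, with Dmrt2 at a log2 fold change of -3.84 on HFD (limma adjusted p = 4.2e-06). The RefSeq promoter of 2610016A17Rik, from 250 bases before to 50 bases after its start, is shown because both starts lie in this window. It covers chr19:25672190-25672489 (GRCm38.p6) and is written 5′ to 3′ on the minus strand, all in lower case since none of the motifs searched was found in it.
2610016A17Rik: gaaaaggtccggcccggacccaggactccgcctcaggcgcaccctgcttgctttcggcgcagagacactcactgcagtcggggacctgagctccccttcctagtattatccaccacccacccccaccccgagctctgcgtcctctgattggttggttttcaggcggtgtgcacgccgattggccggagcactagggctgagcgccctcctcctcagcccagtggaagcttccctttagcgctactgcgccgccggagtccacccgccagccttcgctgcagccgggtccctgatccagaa

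Gm30173 (chr3:52516964-52550219, plus strand), with its start 248628 bp from that of Foxo1, had 164 and 180 normalized counts in WT, against 36 and 30 in Ad-Yap/Taz-KO on HFD (log2 -2.35 ± 0.36, limma adjusted p = 0.00038). On SD it had 70 and 121 in WT, against 131 and 113 in Ad-Yap/Taz-KO, and these groups overlapped. Gm10687 (chr9:44123768-44134485, minus strand) starts 16 bp from the start of Mcam, which encodes an adhesion molecule, on the opposite strand. It had 330 and 391 in WT, against 101 and 49 in Ad-Yap/Taz-KO on HFD (log2 -2.33 ± 0.31, limma adjusted p = 0.00012), and 353 and 388 against 216 and 216 on SD. Its Ad-Yap/Taz-KO libraries were below all WT libraries on either diet, while the test on SD was not passed (limma adjusted p = 0.22). Mcam itself had 14319 and 15002 in WT, against 4329 and 2673 in Ad-Yap/Taz-KO on HFD (log2 -2.11, limma adjusted p = 9.6e-06). On SD it had 10086 and 10168 against 5920 and 7270 and was not called (limma adjusted p = 0.12). This gene pair was thus also lower together on HFD.

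Some of the other large falls were weaker in their support. C130083M11Rik had 100 and 141 normalized counts in WT, against 63 and 18 in Ad-Yap/Taz-KO on HFD (log2 -1.78 ± 0.52, limma adjusted p = 0.019, and 0.088 with the WT libraries averaged to 1 sample). 1110019D14Rik had 70 and 88 against 17 and 29 (log2 -1.77 ± 0.49, limma adjusted p = 0.015, and 0.075 with that averaging). Gm454 had 240 and 238 against 158 and 34, and its log2 change of -1.69 ± 0.55 (limma adjusted p = 0.031) was -0.59 without the second Ad-Yap/Taz-KO library, no longer called, and its limma adjusted p was 0.14 with that averaging. 1200007C13Rik kept its call under every other refit and without each library, with 349 and 349 in WT, against 123 and 111 in Ad-Yap/Taz-KO (log2 -1.57 ± 0.29, limma adjusted p = 0.0013). The same was true of 1810058I24Rik, a member chosen for mention after its values were seen because it contains the reading frame of the mitochondrial microprotein Stmp1. It had 559 and 553 in WT, against 250 and 261 in Ad-Yap/Taz-KO on HFD (log2 -1.12 ± 0.20, limma adjusted p = 0.0009), against 291 and 304 in WT, against 326 and 374 in Ad-Yap/Taz-KO on SD. Gm26782 and Cep83os, also chosen afterwards, had 270 and 212 against 84 and 78 (log2 -1.55 ± 0.30, limma adjusted p = 0.0016) and 155 and 123 against 65 and 35 (-1.51 ± 0.41, limma adjusted p = 0.013, and 0.072 with the averaging). The other 5 called falls lay between -1.56 and -0.95 on the log2 scale.

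Among the rises, Gm26780 (chr11:76614467-76622204, plus strand) was the largest. It had 9 and 5 normalized counts in WT, against 237 and 146 in Ad-Yap/Taz-KO on HFD, 27.4-fold more (log2 4.59 ± 0.87, limma adjusted p = 0.0015), and 25 and 2 against 188 and 68 on SD. Every Ad-Yap/Taz-KO library was above every WT library. It lies within Abr on the opposite strand, with starts 7847 bp apart, and Abr was itself called higher on HFD (log2 2.68, limma adjusted p = 7.9e-06). Of its exon bases, 1.12% overlap exons of Abr. Gpr137b-ps (chr13:12619084-12650297, minus strand), a copy of the lysosomal membrane protein gene Gpr137b that the later annotation calls a transcribed pseudogene, had 74 and 90 in WT, against 687 and 736 in Ad-Yap/Taz-KO on HFD. That was 8.68-fold more (log2 3.11 ± 0.31, limma adjusted p = 1.3e-05). On SD it had 59 and 86 against 443 and 245, 4.74-fold more (log2 2.19 ± 0.31, limma adjusted p = 0.001). The authors left out reads that align to several places, so reads that Gpr137b-ps shares with its parent gene are missing and its counts are uncertain in that respect. The Ad-Yap/Taz-KO libraries stood above the WT libraries on both diets, as did the macrophage marker sums, whose part in this result was not tested.

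Gm7160 had 13 and 12 normalized counts in WT, against 73 and 97 in Ad-Yap/Taz-KO on HFD (log2 2.66 ± 0.45, limma adjusted p = 0.00073), and 47 and 53 against 64 and 64 on SD. Gm38399 had 93 and 121 against 557 and 596 on HFD (log2 2.43 ± 0.24, limma adjusted p = 1.3e-05), and 361 and 339 against 407 and 277 on SD. For both, WT on HFD stood below all other groups. AI662270, near the Slfn genes of immune cells, had 17 and 19 against 105 and 95 on HFD (log2 2.41 ± 0.45, limma adjusted p = 0.0013), and 22 and 30 against 79 and 88 on SD, with 16.2% of its exon bases shared with Gm11427 on the same strand. It was higher in Ad-Yap/Taz-KO on either diet without overlap, though not past the threshold on SD (limma adjusted p = 0.055). Gm16853 had 35 and 40 against 177 and 219 on HFD (log2 2.36 ± 0.32, limma adjusted p = 0.00015), and 188 and 149 against 164 and 114 on SD. Gm15728 had 48 and 65 against 311 and 265 on HFD (log2 2.34 ± 0.33, limma adjusted p = 0.00017), and 127 and 83 against 214 and 158 on SD. These 5 kept their call on HFD under every other refit and without each library, as did Gm16907 (93 and 105 against 429 and 418; log2 2.09 ± 0.29, limma adjusted p = 0.00018) and AU020206 (124 and 103 against 420 and 491; 2.00 ± 0.26, limma adjusted p = 0.00011), which were chosen after their values were seen. Besides those described in other paragraphs, 16 members called higher lay between 0.64 and 2.13 on the log2 scale.

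**Figure D3:**
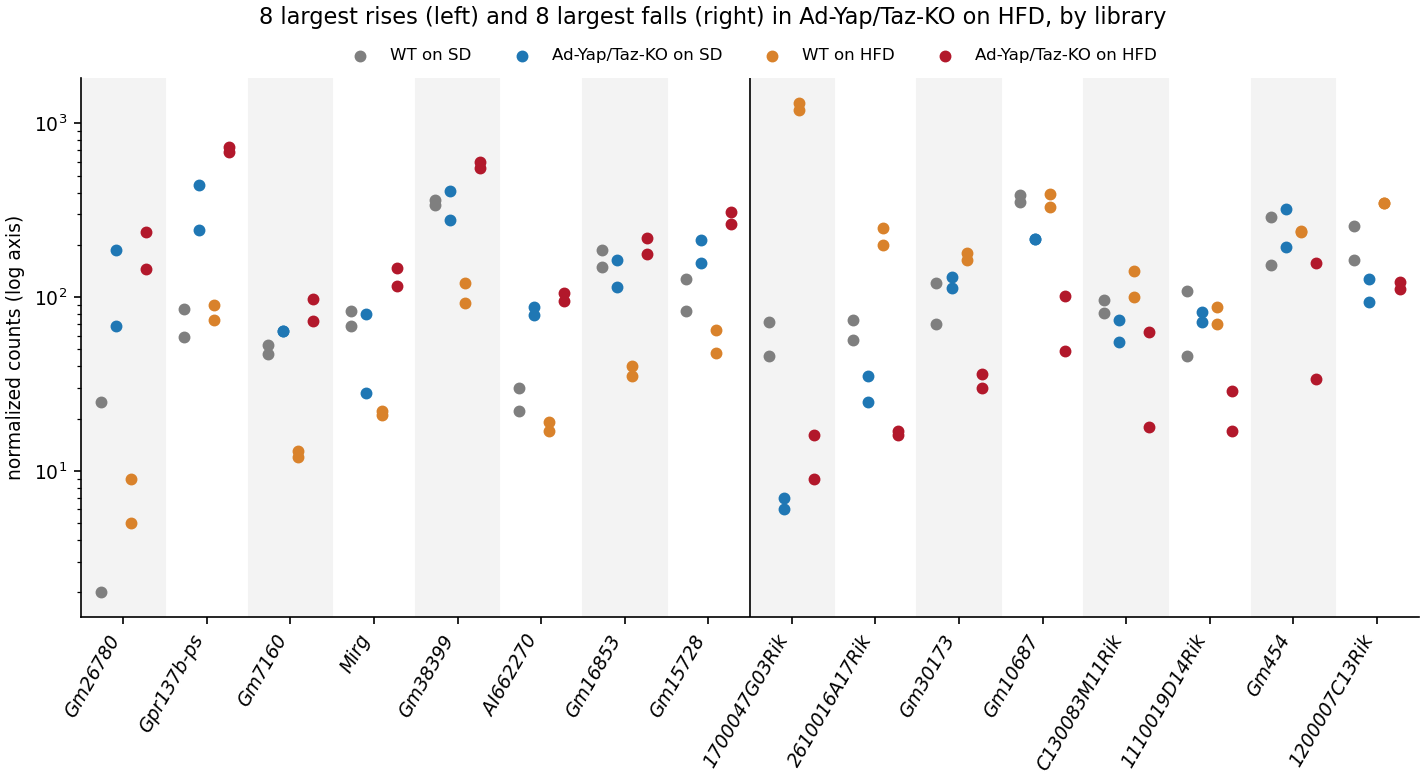
Normalized counts on a log axis of the 8 lincRNAs with the largest called rises (left of the line) and the 8 with the largest called falls (right of it) in Ad-Yap/Taz-KO on HFD, with 1 point per library in the color of its group. 1700047G03Rik runs from 6 to 1312 normalized counts, and for Gm7160, Mirg, Gm38399, Gm16853 and Gm15728 the orange points of WT on HFD lie lowest.

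Some members are precursors of microRNAs, small RNAs that repress mRNAs by pairing through a seed. The values are those of the long host RNA and not of the mature microRNAs. Mir17hg (chr14:115042879-115046727, plus strand), host of the miR-17~92 cluster known for promoting proliferation, had 43 and 48 normalized counts in WT, against 146 and 164 in Ad-Yap/Taz-KO on HFD, 3.41-fold more (log2 1.75 ± 0.32, limma adjusted p = 0.0013). On SD it had 147 and 104 in WT, against 170 and 139 in Ad-Yap/Taz-KO, and the groups overlapped (limma adjusted p = 0.69). Mir155hg (chr16:84703167-84715245, plus strand), host of miR-155, which is best known from activated immune cells, had 42 and 37 against 107 and 126 on HFD (log2 1.53 ± 0.34, limma adjusted p = 0.0039), and 89 and 108 against 118 and 125 on SD. Mirg (chr12:109729764-109749460, plus strand) is part of the maternally expressed noncoding RNAs of the imprinted Dlk1-Dio3 region and contains 14 microRNA genes. It had 22 and 21 against 116 and 148 on HFD (log2 2.55 ± 0.50, limma adjusted p = 0.0019), and 83 and 68 against 80 and 28 on SD. In all 3 hosts the WT libraries on HFD were lower than the other 6 libraries. Between diets in WT, Mir17hg differed by -1.42, Mir155hg by -1.29 and Mirg by -1.76 on the log2 scale, and these calls were lost with the WT libraries on HFD averaged to 1 sample (limma adjusted p = 0.076, 0.11 and 0.13). 6720427I07Rik contains the let-7a-1, let-7f-1 and let-7d genes and was chosen after its values were seen. It had 174 and 195 in WT, against 118 and 171 in Ad-Yap/Taz-KO on HFD. Its log2 value of -0.37 did not pass the test (limma adjusted p = 0.39) and was 0.01 with libraries scaled to the same total.

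Mature sequences from Mir17hg, Mir155hg and Mirg are shown because their seeds, bases 2 to 8 in capitals, set which microRNAs share targets. They are the RefSeq entries on GRCm38.p6, 5′ to 3′. The first 6 come from Mir17hg and hold 4 different seeds, since miR-17-5p and miR-20a-5p share 1 and miR-19a-3p and miR-19b-3p share another. The next comes from Mir155hg, and the last 3 are from the hairpins nearest to the start of Mirg.
mmu-miR-17-5p (chr14:115043684-115043706): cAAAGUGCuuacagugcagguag
mmu-miR-20a-5p (chr14:115044183-115044205): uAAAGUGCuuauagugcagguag
mmu-miR-18a-5p (chr14:115043867-115043889): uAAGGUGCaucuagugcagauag
mmu-miR-19a-3p (chr14:115044048-115044070): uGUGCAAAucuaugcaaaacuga
mmu-miR-19b-3p (chr14:115044358-115044380): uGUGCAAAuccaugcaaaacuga
mmu-miR-92a-3p (chr14:115044476-115044496): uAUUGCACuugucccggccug
mmu-miR-155-5p (chr16:84714143-84714165): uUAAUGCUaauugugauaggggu
mmu-miR-382-5p (chr12:109733781-109733802): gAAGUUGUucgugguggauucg
mmu-miR-134-5p (chr12:109734145-109734166): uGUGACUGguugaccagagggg
mmu-miR-668-3p (chr12:109734774-109734797): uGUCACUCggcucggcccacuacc

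The lists of RNA classes are read against the 17.1% of all genes tested that were higher and the 15.1% that were lower on HFD, and the 9.22% that were lower between diets in WT. Of the 8 tested genes on a list of microRNA hosts, 4 were called higher and none lower on HFD, namely Dnm3os, Mir155hg, Mir17hg and Mirt1, of which Mirt1 is not known as a microRNA host. Between diets in WT, 3 of the 8 were called lower. Of 17 snoRNA host genes tested, whose introns give the small nucleolar RNAs that guide modification of ribosomal RNA, 6 were called higher and 1 lower on HFD, and 6 were called lower on HFD than on SD in WT. The 4 snoRNA hosts among the members were not called between genotypes on HFD. Snhg12 had 145 and 104 normalized counts in WT, against 132 and 138 in Ad-Yap/Taz-KO on HFD, Snhg18 had 90 and 108 against 86 and 98, Snhg20 had 82 and 77 against 128 and 99, and Epb41l4aos had 41 and 34 against 58 and 54. The groups overlapped for Snhg12 and Snhg18 and stood apart for Snhg20 and Epb41l4aos. Of 6 genes tested on a list of imprinted RNAs, 4 were called higher and 1 lower on HFD (Airn, Mirg, Peg13, Rian and Rtl1 in all), and Rtl1 among them encodes a protein. Of 3 tested genes on a list of ribosomal repeat RNAs, which include Gm26917, limma called 0 on HFD, and 0 had an unadjusted p under 0.05. Of 5 nuclear body and X inactivation RNAs, Neat1 alone was called on HFD.

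A group of 4 members lies on chromosome 6 beside Klf14, a transcription factor gene linked to fat metabolism. Gm27019 (chr6:31063092-31063495), Gm13834 (chr6:31087609-31087912), Gm13833 (chr6:31102846-31104646) and Lncpint (chr6:31093559-31218474) start 104, 129, 144 and 259 kb from the start of Klf14. Lncpint, induced by p53 in other cells, was chosen for mention after its values were seen. It had 423 and 496 normalized counts in WT, against 1077 and 1106 in Ad-Yap/Taz-KO on HFD, 2.38-fold more (log2 1.25 ± 0.18, limma adjusted p = 0.00027), and 1126 and 818 against 1161 and 1131 on SD. Gm27019 had 42 and 75 against 150 and 122 on HFD (log2 1.25 ± 0.35, limma adjusted p = 0.016, and 0.056 with the WT libraries averaged). Gm13834, also chosen afterwards, had 40 and 71 against 133 and 127 (log2 1.27 ± 0.37, limma adjusted p = 0.019, and 0.069 with that averaging). Gm13833 had 116 and 105 against 289 and 229 (log2 1.21 ± 0.29, limma adjusted p = 0.0059, and 0.13 with the trend on GC content and gene length removed). All 4 were lower in the WT libraries on HFD than in the Ad-Yap/Taz-KO libraries on HFD. Gm13833 lies within Lncpint on the opposite strand, so their reads may not have been told apart. The protein-coding start nearest to that of Lncpint belongs to Mkln1, 180261 bp away, which was not called on HFD (log2 0.0007). Klf14 itself was listed at 0 in all 4 Ad-Yap/Taz-KO libraries, at 14 and 11 in WT on SD and at 329 and 239 in WT on HFD, so that it was high in the group in which the 4 lincRNAs were low.

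Further lincRNAs known from other tissues were chosen after their values were seen. Pvt1, which starts 52645 bp from the Myc start, had 59 and 73 normalized counts in WT, against 155 and 150 in Ad-Yap/Taz-KO on HFD (log2 1.20 ± 0.34, limma adjusted p = 0.016, and 0.073 with the WT libraries averaged). Myc had 1998 and 1842 against 1857 and 1700 and was not called (limma adjusted p = 0.68). Trp53cor1 (lincRNA-p21) had 153 and 98 against 137 and 218 and overlapped between the groups (log2 0.49 ± 0.37, limma adjusted p = 0.33), with 44.1% of its exon bases shared with genes on the opposite strand. Its neighbor Cdkn1a had 1614 and 1647 against 2423 and 3139 (log2 0.76, limma adjusted p = 0.007). Carmn, a smooth muscle RNA that hosts the miR-143/145 genes, had 198 and 312 in WT, against 407 and 510 in Ad-Yap/Taz-KO on SD, and 278 and 276 in WT, against 170 and 126 in Ad-Yap/Taz-KO on HFD. It was above WT in the Ad-Yap/Taz-KO libraries on SD and below WT on HFD. The fall on HFD was called (log2 -0.92 ± 0.27, limma adjusted p = 0.019, and 0.1 with the WT libraries averaged), and the difference on SD was not (0.87 ± 0.27, limma adjusted p = 0.099).

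On SD far fewer members differed between the genotypes. Of the 128, 5 were called (3.91%), against 4.71% of all genes tested and 6.9% of those at a mean of 50 or more. The 4 that were higher compare with 3.21% and 4.69% of these genes, and the 1 that was lower with 1.5% and 2.21%. The median log2 fold change was -0.04 for the members and -0.01 for all genes tested. The groups did not overlap for 66 members, against 45.0% of all genes tested and 49.4% of those at a mean of 50 or more. Gm26780 (log2 3.69 ± 0.87, limma adjusted p = 0.028), Gpr137b-ps and 1700047G03Rik have been described. Gm26603 (chr2:52859723-52863516, minus strand) had 418 and 394 normalized counts in WT, against 809 and 903 in Ad-Yap/Taz-KO on SD (log2 1.07 ± 0.22, limma adjusted p = 0.012), and 140 and 125 against 527 and 367 on HFD (log2 1.73 ± 0.22, limma adjusted p = 8.1e-05). It was higher in Ad-Yap/Taz-KO on either diet, and lower on HFD in either genotype, with no overlap, though the diets did not differ past the threshold in Ad-Yap/Taz-KO (limma adjusted p = 0.059). Gm26603 lies within Fmnl2, which was itself called higher on SD (log2 0.76, limma adjusted p = 0.012). Fmnl2 had 790 and 805 in WT, against 1314 and 1386 in Ad-Yap/Taz-KO on SD. On HFD it was not called (log2 0.22, limma adjusted p = 0.3). Gm44956 (chr8:10962957-10970814, minus strand), with its start 37644 bp from that of Irs2, had 43 and 41 in WT on SD and between 88 and 122 in the 6 other libraries (log2 1.37 ± 0.34 for the knockout on SD, limma adjusted p = 0.038, and 0.073 with the WT libraries on HFD averaged). With no filter on low values the calls of Gm26780 (limma adjusted p = 0.16), Gm44956 (0.066) and Gm26603 (0.051) on SD were lost, and the count was 2 without the second WT library and 3 without the second Ad-Yap/Taz-KO library. Gpr137b-ps alone kept its call on SD under every other refit and without each library. Of the 123 members not called, AI662270 had a log2 value of 1.66, and the 115 that fall outside the naming rule lay between -1.59 and 1.46.

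**Figure D4:**
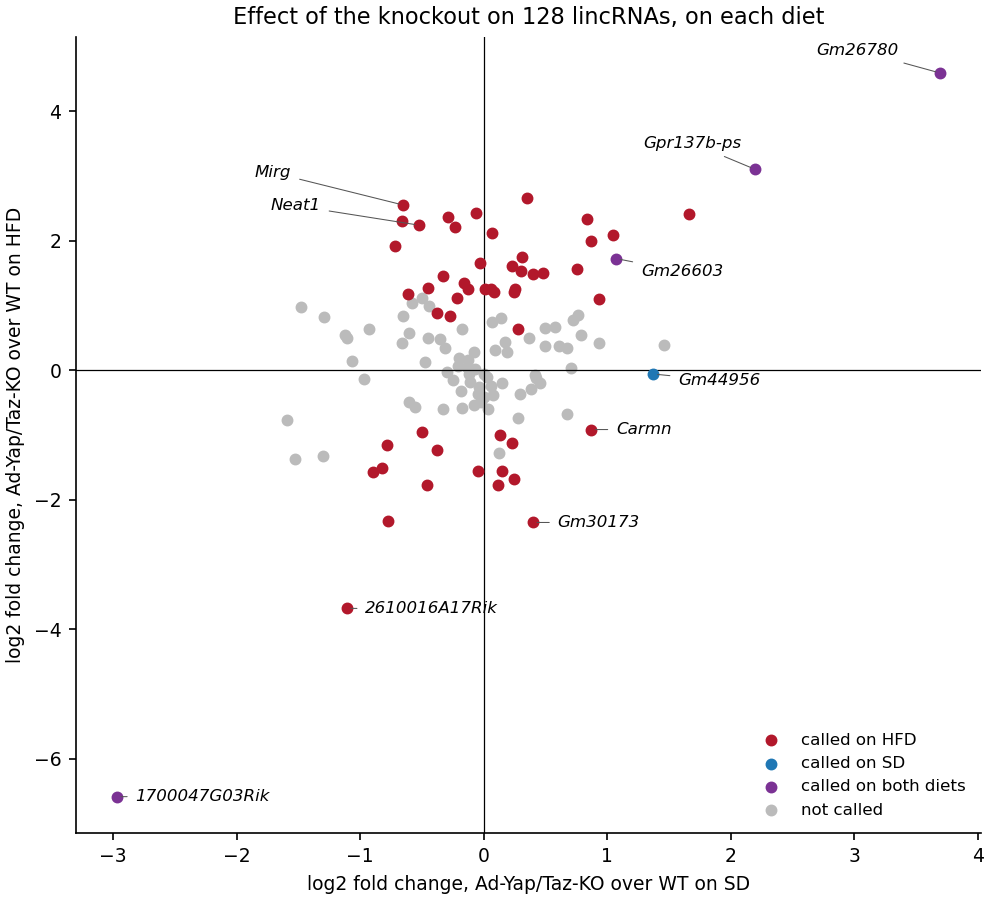
The log2 fold change of Ad-Yap/Taz-KO over WT on SD (horizontal) and on HFD (vertical) for each of the 128 lincRNAs, with points colored by the diet on which they were called. The 4 purple points were called on both diets, and Mirg and Neat1 lie high on the vertical axis with values on SD of -0.65 and -0.52.

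Between the diets in WT, 32 members were called (25.0%), against 18.0% of all genes tested and 24.5% of those at a mean of 50 or more, and 28 of the 32 were lower on HFD. The other 4 were higher. Over all genes tested, 8.74% were higher and 9.22% lower, and at a mean of 50 or more 13.1% were higher and 11.4% lower. The median log2 fold change was -0.46 for the members and -0.08 for all genes tested, and 0.10 for genes at a mean of 50 or more. The groups did not overlap for 93 members (72.7%), against 65.0% of all genes tested and 74.8% at a mean of 50 or more. The share of calls that were higher was 12.5%, and it was 32.1% (9 higher, 19 lower) with the trend on GC content and gene length removed. Among the 93 members with a mean of at least 50 in both groups, 21 were called, 3 higher and 18 lower. Of the members called, Gm4262 and Gm26551 reached the limit of 50 only through WT on SD. 1700047G03Rik and 2610016A17Rik reached it only through WT on HFD. This comparison rests on few libraries. The count was 52 with libraries scaled to the same total, 19 with quantile normalization and 7 with the WT libraries on HFD averaged to 1 sample, and it was 6, 10, 9 and 11 without the first or second library on SD and the first or second on HFD. It shares the WT libraries on HFD with the comparison of the genotypes on HFD, so a member low in those libraries counts in both.

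The 4 members higher on HFD in WT were 1700047G03Rik, 2610016A17Rik (57 and 74 normalized counts on SD, 250 and 199 on HFD; log2 1.76 ± 0.43, limma adjusted p = 0.015), Gm44956 (43 and 41 against 112 and 104; 1.34 ± 0.34, limma adjusted p = 0.018) and 1810058I24Rik (291 and 304 against 559 and 553; 0.90 ± 0.20, limma adjusted p = 0.0088). With the WT libraries on HFD averaged, 1700047G03Rik kept its call and the other 3 lost it (limma adjusted p = 0.11, 0.12 and 0.093). After Neat1, the largest falls were those of Gm16853 (188 and 149 on SD, 35 and 40 on HFD; log2 -2.13 ± 0.32, limma adjusted p = 0.0014) and 9330104G04Rik, also higher in Ad-Yap/Taz-KO on HFD (99 and 117 against 14 and 40; -2.13 ± 0.49, limma adjusted p = 0.012, and 0.056 with the averaging). Gm4262 had 88 and 116 on SD and 24 and 24 on HFD (log2 -2.03 ± 0.45, limma adjusted p = 0.01, and 0.07 with the averaging), and Gm7160 had 47 and 53 against 13 and 12 (-1.92 ± 0.45, limma adjusted p = 0.013, and 0.072). None of these overlapped between the diets. The mean of Gm4262 over the groups other than WT on SD was 36.2, under the limit that chose the members. Gm16853, Gm26603, Gm26615, Gm38399, Neat1 and 1700047G03Rik kept their call under every other refit and without each library. Gm3289 and Gm17275, among the highest members per kilobase, had 319 and 286 against 113 and 119 and 862 and 708 against 355 and 384, and share 22.9% and 25.0% of their exon bases with genes on the opposite strand (Gm30270 and H3f3a). Gm26615 (-1.76), Gm38399 (-1.71), Gm26603 (-1.61), Gm13834 (-1.84), Gm27019 (-1.14), Snhg20 (-1.11) and Lncpint (-1.07) were also called lower. With the WT libraries on HFD averaged, Lncpint kept its call (limma adjusted p = 0.048), Gm13834 lay at the limit without passing it (0.05 after rounding), and Gm27019 (0.14), Snhg20 (0.12), Gm3289 (0.099) and Gm17275 (0.12) lost theirs. Besides these and the microRNA hosts above, 11 called falls lay between -1.70 and -0.78 on the log2 scale.

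Between the diets in Ad-Yap/Taz-KO, 3 members were called (2.34%), all lower on HFD, against 1.07% of all genes tested, of which 0.691% were lower and 0.383% higher, and against 1.66% at a mean of 50 or more (1.07% lower, 0.595% higher). The groups did not overlap for 71 members, against 42.0% of all genes tested and 45.5% of those at a mean of 50 or more. Gm30173 had 131 and 113 normalized counts on SD and 36 and 30 on HFD (log2 -1.86 ± 0.36, limma adjusted p = 0.034), Carmn had 407 and 510 against 170 and 126 (-1.63 ± 0.27, limma adjusted p = 0.016), and Gm10687 had 216 and 216 against 101 and 49 (-1.60 ± 0.31, limma adjusted p = 0.032). All 3 lost the call in the fit with the WT libraries on HFD averaged to 1 sample (limma adjusted p = 0.11, 0.069 and 0.11), which leaves fewer libraries to estimate the spread. The count was 10 and 8 without the first library on SD or on HFD, and 0 without the second library of either diet.

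For 27 members (21.1%) the knockout had unlike effects on HFD and SD by the interaction term, against 17.4% of all genes tested and 24.6% of those at a mean of 50 or more. The effect was more positive on HFD for 19, against 8.69% of all genes tested and 11.3% at a mean of 50 or more, and more negative for 8, against 8.73% and 13.3%. Of the calls, 70.4% were positive, a share that was 86.8% (33 and 5) with libraries scaled to the same total, 50% (9 and 9) with quantile normalization and 50% (11 and 11) with the trend on GC content and gene length removed. Mirg (log2 3.20 ± 0.71, limma adjusted p = 0.012), Gm26615 (2.96 ± 0.42, 0.0028), Neat1, Gm16853 (2.65 ± 0.46, 0.005) and Gm26545 (2.64 ± 0.78, 0.037) had the largest positive differences. Gm26615 (chr4:133085474-133089146, plus strand) had 233 and 304 normalized counts in WT, against 199 and 142 in Ad-Yap/Taz-KO on SD, and 61 and 100 against 393 and 386 on HFD. Gm26545 had 74 and 65 against 67 and 26 on SD, and 26 and 22 against 60 and 146 on HFD. For Gm26615, WT on HFD was below all other libraries, while for Gm26545 it tied with 1 Ad-Yap/Taz-KO library on SD at 26. The largest negative differences were those of 1700047G03Rik (-3.62 ± 0.65, limma adjusted p = 0.0059), Gm30173 (-2.75 ± 0.51, 0.0069), 2610016A17Rik (-2.57 ± 0.61, 0.016), Carmn (-1.79 ± 0.38, 0.011) and Gm10687 (-1.56 ± 0.44, 0.03). Those of Gm26615, Neat1, Gm16853, Gm38399 and Gm30173 kept their call under every other refit and without each library. With the WT libraries on HFD averaged, Mirg (limma adjusted p = 0.056), Gm26545 (0.11), 1700047G03Rik (0.052), 2610016A17Rik (0.073), Carmn (0.061) and Gm10687 (0.11) lost theirs. The count was 5 with that averaging, and without 1 library it was 6 or 14 (first or second WT library on SD), 10 (second Ad-Yap/Taz-KO library on SD), 8 (either WT library on HFD) or 9 (second Ad-Yap/Taz-KO library on HFD). The other 17 called members, Gm38399 among them, lay between 1.00 and 2.49 (14 members) or between -1.51 and -1.13 (3 members).

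For 116 of the 128 members the nearest protein-coding gene by start site was itself tested, and on HFD 42 of these 116 neighbors were called, near the 32.2% of all genes tested and 41.1% at a mean of 50 or more. Of the 55 members called on HFD, 53 had a tested neighbor, which was called in the same direction for 17, in the opposite direction for 5 and not called for 31. The 5 opposite pairs include Gm27019, Gm13834 and Gm13833, which share Klf14 as their neighbor. Divergent pairs, which start on opposite strands within 2 kb and away from each other, numbered 19, and 10 of their lincRNAs were called on HFD, where 43.0% of all members were. In 6 of these 10 the neighbor was called in the same direction. Gm15728 starts 92 bp from Rfc5, a subunit of the replication factor C clamp loader (log2 1.67, limma adjusted p = 0.00013), Gm16853 117 bp from Qtrt1, a tRNA-modifying enzyme (1.36, 0.022), and Gm7160 124 bp from Zcchc2 (0.61, 0.015). 9330104G04Rik starts 431 bp from Dact3, an inhibitor of Wnt signaling (1.73, 0.015), and Gm16576 162 bp from Sun2, which links the nuclear envelope to the cytoskeleton (-0.85, 0.001). 2610016A17Rik with Dmrt2 is the sixth. The pair of 1110019D14Rik and 2610001J05Rik, whose starts lie 8 bp apart, did not move together, with log2 values of -1.77 and -0.11. Libraries were made with a stranded kit, but the strand setting of the counting is not given in the sources used here, so reads of overlapping genes on opposite strands may not have been told apart, and reads lying over several genes were left out by the authors.

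**Figure D5:**
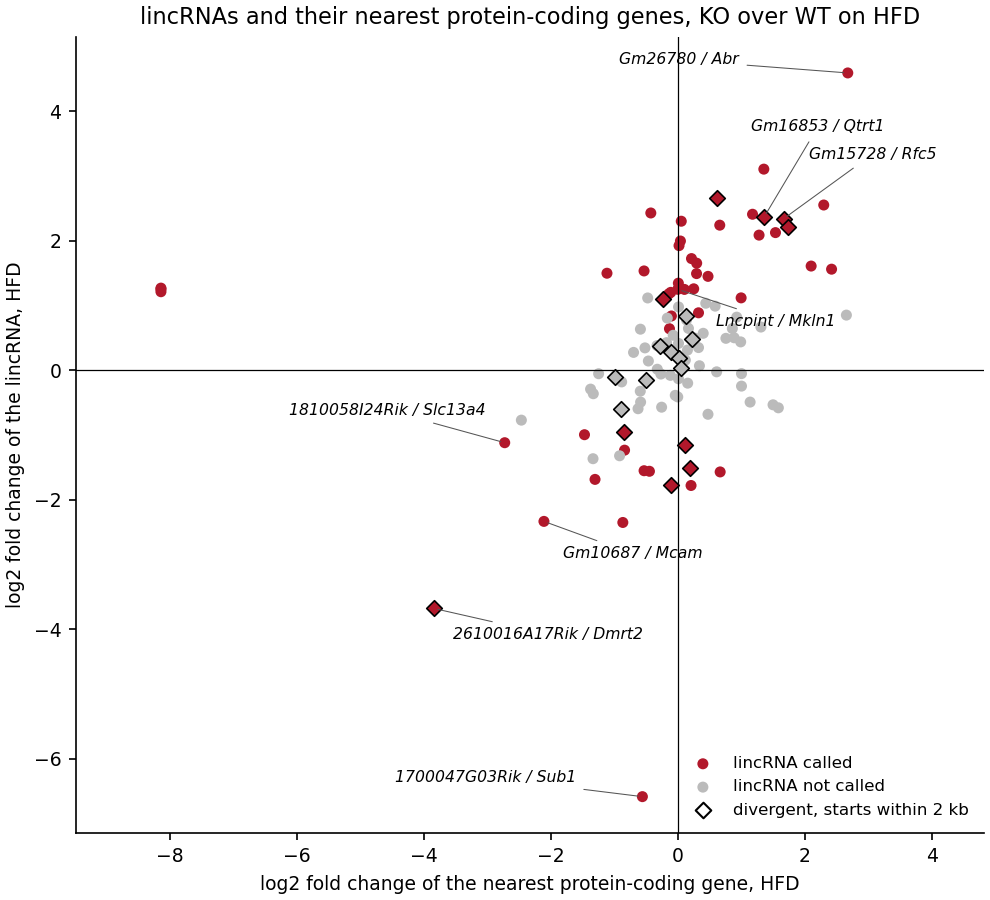
The log2 fold change of Ad-Yap/Taz-KO over WT on HFD of each lincRNA (vertical) against that of its nearest protein-coding gene (horizontal), for the 116 pairs in which both were tested. Outlined diamonds are divergent pairs that start within 2 kb, 2610016A17Rik with Dmrt2 lies at -3.68 and -3.84, and the points at the far left are 3 lincRNAs that share Klf14 (-8.14), which was listed at 0 in all Ad-Yap/Taz-KO libraries.

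YAP and TAZ act through TEAD transcription factors, whose core motif is CATTCC. Promoter windows of 300 bases, from 250 before to 50 after a RefSeq start, were matched by symbol for 58 members, which have 66 such windows. CATTCC on either strand was found in 16 of the 66 (24.2%), against 14.7% of 32851 promoters in all. The AP-1 motif TGANTCA was found in 5 (7.58% against 7.81%) and the ETS motif CCGGAAG in 8 (12.1% against 8.86%). Among members called on HFD, CATTCC was found for 3 of the 13 matched that were higher and for 4 of the 14 matched that were lower. The latter have 19 windows, of which 5 belong to Gm454, and 1 of the 4 is 1700047G03Rik, whose RefSeq start lies 2786 bp from the start in the table. Among the 3, that of Mir155hg lies 9856 bp away. A match is a description of the letters and not a bound site. The windows of 2 members among the largest falls on HFD that hold CATTCC are shown, with CATTCC or its reverse complement GGAATG in capitals. In C130083M11Rik (chr5:52216384-52216683, minus strand) it begins at base 109, counted from 1 at the 5′ end, beside an AP-1 match. In 1110019D14Rik (chr6:13871319-13871618, plus strand) it begins at base 143.
C130083M11Rik: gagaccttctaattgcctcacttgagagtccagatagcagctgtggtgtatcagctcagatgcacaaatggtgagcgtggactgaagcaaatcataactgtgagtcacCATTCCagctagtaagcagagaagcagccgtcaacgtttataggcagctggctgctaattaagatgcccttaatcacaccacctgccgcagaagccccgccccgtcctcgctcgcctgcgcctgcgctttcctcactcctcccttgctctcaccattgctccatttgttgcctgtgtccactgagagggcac
1110019D14Rik: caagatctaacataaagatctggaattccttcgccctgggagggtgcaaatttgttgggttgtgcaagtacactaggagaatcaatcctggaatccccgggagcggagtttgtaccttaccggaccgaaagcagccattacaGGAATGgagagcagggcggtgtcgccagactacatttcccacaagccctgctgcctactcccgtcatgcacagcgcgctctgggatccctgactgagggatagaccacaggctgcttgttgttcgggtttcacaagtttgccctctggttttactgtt

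Over all 5 comparisons, 66 members were called in at least 1 and 62 in none. Of the 66, 31 were called in 1 comparison, 15 in 2, 19 in 3 and 1 in 4. The share of all genes tested that was called in at least 1 comparison was not determined. These counts are therefore a description of the members and are not read against other genes. The 73 members not called on HFD include 1700020I14Rik (chr2:119594297-119607502, plus strand), the fourth most abundant member. It had 2364 and 2336 normalized counts in WT, against 1590 and 1554 in Ad-Yap/Taz-KO on HFD without overlap, and its log2 value of -0.58 ± 0.14 had a limma adjusted p of 0.0072 but fell short of the fold limit. On SD it had 1934 and 2057 in WT, against 1835 and 1695 in Ad-Yap/Taz-KO.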

How the data were processed

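RNA from isolated adipocytes was depleted of ribosomal RNA (RiboGone) and made into stranded libraries (SMARTer). Per the labels and methods, the authors trimmed reads with Reaper, aligned them to GRCm38/mm10 with STAR 2.5.2b, counted them per gene with featureCounts 1.5.1, leaving out multi-mapped reads and reads that overlap more than 1 gene, and normalized with DESeq2 1.14.1. The deposited table holds, as a score with no fixed range, gene counts divided by a library size factor and rounded to whole numbers, here called normalized counts, so a count model was not used. The strand setting of the counting is not given in the sources used here.

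The value of 1 read in each column was estimated from the steps between low values, which gave 13990000 to 22320000 reads assigned to genes per library. Genes with a mean of at least 5 (18800) were fitted with limma 3.58.1 (R 4.3.3; trend, log2(value + 1), 4 group means, 4 residual and 8.59 prior degrees of freedom), with Benjamini-Hochberg adjustment over all of them. The fit was tested on simulated data. Levels per kilobase used the GENCODE vM21 exon length, and tables and plots were made with pandas 2.3.3, numpy 2.4.6 and matplotlib 3.10.9 in Python 3.11.15. Named members are the 10 highest per kilobase, up to 8 largest called rises and falls without overlap on HFD and up to 5 in each other comparison, members on lists of RNA classes, and the 3 genes on either side of the limit of 50. Others were chosen after their values were seen, as stated. The members and lists were chosen with earlier results of these data known. Each pairwise comparison was refitted under 12 alternatives and without each library, and called at 2 other limits. Columns of other samples numbered 0.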

Additional observations from a re-analysis of the deposited data

Results flagged for a closer look

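Of the 27 members whose interaction term passed the threshold in the limma fit, those with the 5 largest differences in each direction are given, for which the knockout acted differently on HFD than on SD. The log2 difference of the effects, HFD minus SD, was 3.20 for Mirg, 2.96 for Gm26615, 2.77 for Neat1, 2.65 for Gm16853 and 2.64 for Gm26545. It was -3.62 for 1700047G03Rik, -2.75 for Gm30173, -2.57 for 2610016A17Rik, -1.79 for Carmn and -1.56 for Gm10687. For the first 5, both WT libraries on HFD were below both Ad-Yap/Taz-KO libraries on HFD, while no difference passed the test on SD. The Ad-Yap/Taz-KO libraries of Carmn stood apart from WT in opposite directions, above WT on SD (log2 0.87) and below WT on HFD (log2 -0.92). With the WT libraries on HFD averaged to 1 sample, the interaction of Mirg (limma adjusted p = 0.056), Gm26545 (0.11), 1700047G03Rik (0.052), 2610016A17Rik (0.073), Carmn (0.061) and Gm10687 (0.11) no longer passed. Macrophage, fibroblast and adipocyte markers move with the same groups, and their part in these differences was not tested.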

How the results depend on the processing

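The main counts of called members were 55 (the genotypes on HFD), 5 (the genotypes on SD), 32 (HFD against SD in WT), 3 (HFD against SD in Ad-Yap/Taz-KO) and 27 (interaction). With the WT libraries on HFD averaged to 1 sample they were 31, 4, 7, 0 and 5, and with an adjusted p of at most 0.01 they were 34, 2, 9, 0 and 7. With no filter on low values, which tests more genes, the counts that moved were 2 on SD, 18 between diets in WT, 0 in Ad-Yap/Taz-KO and 7 for the interaction. Fits of only the groups compared gave 2 on SD and 0 between diets in Ad-Yap/Taz-KO. Between diets in WT, the count was 52 with libraries scaled to the same total and 19 with quantile normalization. In Ad-Yap/Taz-KO it was 5 with each of these, with upper-quartile scaling and with a pseudocount of 8. Between diets in Ad-Yap/Taz-KO, where some limma refits called 0, 27 members had an unadjusted p under 0.05 with the settings used. The cause of the shifts between scalings was not tested. Leaving out 1 library gave 33 to 49 calls on HFD, 2 to 4 on SD, 6 to 11 between diets in WT, 0 to 10 in Ad-Yap/Taz-KO and 6 to 30 for the interaction. The replicate number as a block gave 52, 4, 29, 1 and 19 calls. For libraries with the same number, the correlations of deviations between groups were -0.3 to 0.108. With 2 libraries per group, such values cannot decide whether libraries with the same number share more than that number.

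Of 1918 values of named genes under the alternatives, 1624 kept direction and side of the threshold, 251 fell short of it, 23 newly passed it and 20 changed sign. None of the values that changed sign was called. On HFD, scaling to the same total gave 0.1258 for Gm26917, 0.2022 for Gm3289, 0.2797 for Snhg18 and 0.011 for 6720427I07Rik, quantile normalization gave 0.4185 for Gm26917 and -0.0628 for Snhg12, and removal of the GC and length trend gave -0.0764 for Malat1, -0.1198 for Gm17275, -0.2024 for Snhg12 and -0.2084 for Epb41l4aos. Quantile normalization gave 0.1119 for Neat1 between diets in Ad-Yap/Taz-KO. Without 1 library, values on HFD ran from -0.5313 to 0.0116 for Gm26917, -0.0342 to 0.0659 for Malat1, -0.5661 to 0.2069 for Gm3289, -0.0851 to 0.3985 for Gm17275, -0.1027 to 0.3729 for Snhg12 and -0.232 to 0.0284 for Snhg18, those of Mirg on SD from -1.3924 to 0.0894 and those of Neat1 between diets in Ad-Yap/Taz-KO from -0.1788 to 0.0134. The median of the members stayed above that of all genes for the genotypes on HFD and below it between diets in WT under each scaling, by 0.76 against 0.47 and -0.86 against -0.48 with libraries scaled to the same total, and by 0.05 against -0.09 and -0.21 against 0.03 with quantile normalization. With 2 libraries per group, members outside the naming rule with log2 values of up to 1.12 and down to -1.37 on HFD, and up to 1.46 and down to -1.59 on SD, were not called.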
